A study of Mus musculus with 8 samples.

Results

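The genes described here were 49 genes of the cell cycle, 18 that serve S phase and 31 that serve mitosis, picked by gene symbol from the 22740 protein-coding genes counted in mouse skin. All 49 passed the filter on low counts, which kept 15163 genes in all, and the lowest count of a member in any mouse was 52, for Cdc25c. RNA sequencing was performed on dorsal skin of 8 female BALB/c mice, 6 to 8 weeks old and kept on a low-fibre diet, and each of 4 groups held 2 mice with a library of their own. Mice either drank 400 mM sodium butyrate, a short-chain fatty acid that gut bacteria make from fibre, or drank the vehicle (CTL). Lesional skin had received house dust mite extract (HDM) in 4 epicutaneous exposures of 15 µg over 2 weeks, with butyrate begun 2 weeks earlier and continued, whereas baseline skin received no HDM and was taken after the butyrate treatment. The 4 groups are called baseline CTL (mice 1 and 2), baseline butyrate (mice 1 and 3), lesional CTL (mice 4 and 5) and lesional butyrate (mice 3 and 4), and values are always given in this order of mice. HDM was applied to shaved skin under an occlusive patch, and no patch is stated for the baseline libraries. The labels number the baseline and the lesional mice as 2 separate sets. The effect of HDM cannot be told apart from a difference between the sets or, if baseline skin had no patch, from that of the patch. Levels are given as CPM, the count of a gene scaled to a common library size after TMM normalization.

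A cell that divides first copies its DNA in S phase and then separates the copies in mitosis, and the RNAs for both steps are made in waves, the S phase genes under E2F factors and the mitosis genes later under B-Myb and FOXM1. In skin, most dividing cells lie in the basal layer of the epidermis and, while a hair grows, in the matrix at the base of its follicle. Dividing keratinocytes increase in number when epidermis is injured or inflamed and thickens. Because whole skin was sequenced, fewer cells of a dividing type and less of an RNA per cell cannot be told apart.

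Depth was close to even, with 18004136 to 21085544 counts per library, and 3 counts corresponded to 0.138 to 0.169 CPM. The keratin Krt5 of basal keratinocytes lay between 3797 and 5945 CPM in all 8 mice, so that the marker of the labelled tissue was present. Baseline butyrate mouse 3 stood apart from the other 7. The summed level of 17 listed genes of the growing hair follicle was 22253 CPM in this mouse and 9.19 to 16.7 CPM in the others, where 1 to 5 of the 17 genes had 0 counts. Regulators of the hair matrix such as Hoxc13 and Msx2 (6 genes) summed to 943 CPM against 37.7 to 67.5, and melanocyte genes (5) to 723 CPM against 24.7 to 44.1. Comparisons of the members as sets are therefore given below with and without it. Standard errors, p-values and FDRs of single genes come from the fit over all 8 mice unless stated. That fit shares its estimate of spread with the baseline butyrate pair. The other gene lists are given over all 8 mice only.

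The S phase genes and the mitosis genes did not follow the same order over the mice. The median level of the 18 S phase genes was 25.2 and 24.6 CPM in baseline CTL skin, 26.2 and 45.6 in baseline butyrate skin, 54.1 and 48.6 in lesional CTL skin and 44.6 and 48.4 in lesional butyrate skin. The median of the 31 mitosis genes was 15.9 and 16.2 CPM in baseline CTL skin, 14.6 and 35.3 in baseline butyrate skin, 25.9 and 21.5 in lesional CTL skin and 21.0 and 23.4 in lesional butyrate skin. All 4 lesional mice and baseline butyrate mouse 3 lay above the other 3 baseline mice in both sets, but mouse 3 was within the lesional range for S phase and above it for mitosis. Taking each gene relative to its baseline CTL mean, the median S phase gene stood at 1.71-fold in baseline butyrate mouse 3 and at 1.53- to 1.81-fold in the 4 lesional mice. The median mitosis gene stood at 2.30-fold in baseline butyrate mouse 3 and at 1.20- to 1.60-fold in the lesional mice. On the log2 scale the mitosis median therefore exceeded the S phase median by 0.43 in baseline butyrate mouse 3, whereas it was lower in the lesional mice, with differences of -0.17, -0.19, -0.40 and -0.26, and in baseline butyrate mouse 1, at -0.24.

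**Figure D1:**
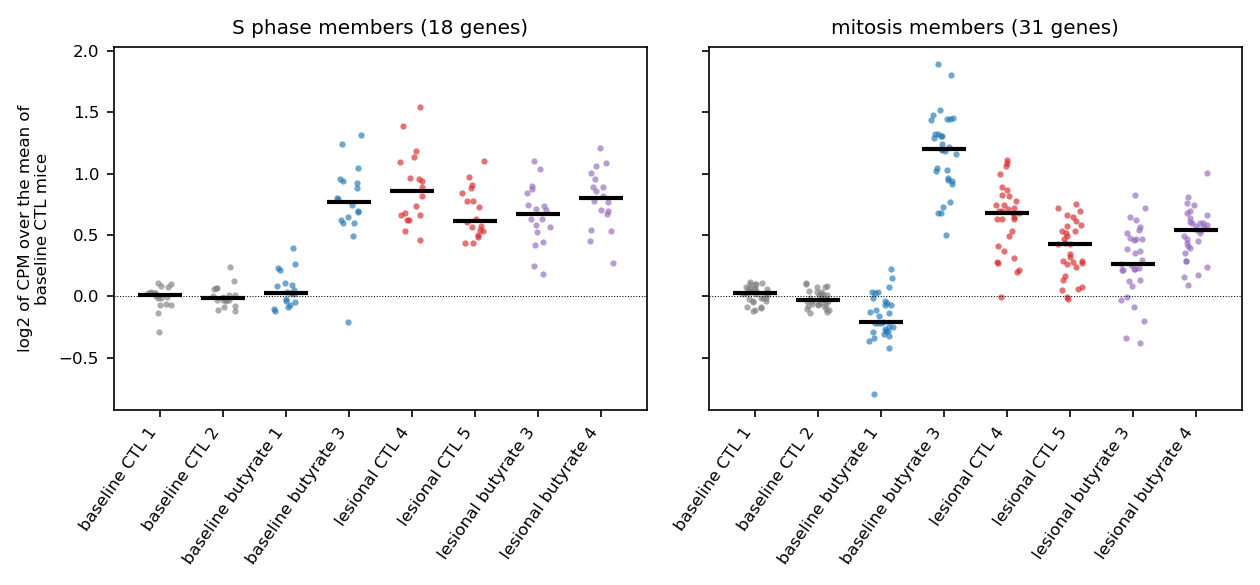
Level of each gene in each mouse, as log2 of its CPM over the mean of the 2 baseline CTL mice, for the 18 S phase genes (left) and the 31 mitosis genes (right); each point is 1 gene, each column 1 mouse coloured by group, and the black line is the median. The median of baseline butyrate mouse 3 is at 0.77 for S phase, among the lesional mice (0.62 to 0.86), and at 1.20 for mitosis, above them (0.27 to 0.68).

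Member by member, all 31 mitosis genes had their highest level in baseline butyrate mouse 3, which held for 5 of the 18 S phase genes (Mcm7, Rrm1, Tyms, Tk1 and Ccne2) and for 30.6% of all genes tested. Lesional CTL mouse 4 was the highest mouse for 11 S phase genes and for no mitosis gene, against 10.4% of all genes. For all 18 S phase genes, every lesional mouse lay above baseline CTL mice 1 and 2 and baseline butyrate mouse 1, as it did for 24 of the 31 mitosis genes, beside 23.0% of all genes tested. The 2 baseline butyrate mice differed by more than 1.5-fold in 46 of the 49 members, beside 47.9% of all genes. No member did so in baseline CTL skin (8.98% of all genes) or lesional CTL skin (8.03%), and 1 did so in lesional butyrate skin (17.7%).

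**Figure D2:**
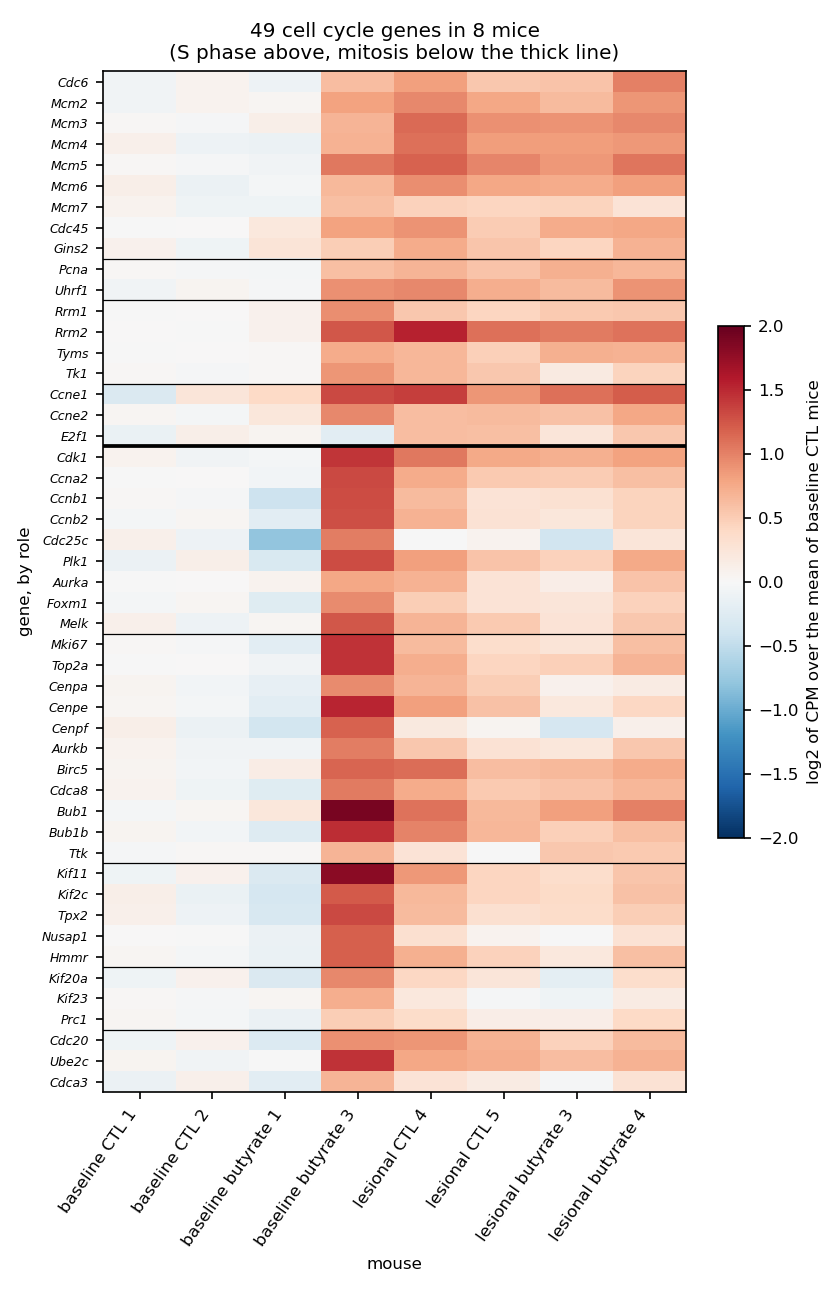
Heatmap of the 49 genes (rows, grouped by role with lines between roles, S phase above the thick line) in the 8 mice (columns), coloured by log2 of CPM over the baseline CTL mean from -2 (blue) to 2 (red). The column of baseline butyrate mouse 3 is the reddest for all 31 mitosis genes, and the row of E2f1 is blue there.

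Promoter sequence from RefSeq (build GRCm38.p6) was at hand for 40 of the 49 members, as 43 windows of 250 bases before to 50 bases after a transcript start. It is shown as a description of the 2 sets of genes, and its relation to their levels in the mice was not tested. Ccna2, Ccne2, Cdc25c, Aurkb, Foxm1, Gins2, Kif20a, Mcm4 and Tpx2 had no entry. The letters TTTGAA, which are the cell cycle homology region (CHR) bound by the complex that silences mitosis genes in resting cells, were found on either strand in 20 of 26 mitosis windows (76.9%) and 2 of 17 S phase windows (11.8%), against 15.5% of the 19359 windows of all genes counted. The E2F letters TTTGGCGC, TTTCGCGC or TTTCCCGC were found in 6 of 17 S phase windows (35.3%), 1 of 26 mitosis windows (3.85%) and 2.38% of all windows. CCAAT, the letters of the NF-Y box, was in 22 of 26 mitosis windows (84.6%), 12 of 17 S phase windows (70.6%) and 37.7% of all windows. Of the 24 CHR matches in mitosis windows, 18 began within 50 bases of the start. In genes of the same pathways outside the 49, the CHR letters were in 58.7% of 46 windows of other mitosis genes and 19.4% of 31 windows of other replication genes. The E2F letters were in 13.0% and 29.0% of these windows, and CCAAT in 69.6% and 41.9%, so that CCAAT in other replication genes was nearer to all genes than to the S phase members. A match describes letters and not a site in use, and windows of a gene with several starts can overlap.

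The 160 bases just before the start are printed 5′ to 3′ for 5 mitosis genes with a CHR and 4 S phase genes, with letters of any of the 3 motifs in capitals. Capitals in another spelling than those above are matches on the other strand.
Cdk1 (chr10:69352913-69353072, minus strand): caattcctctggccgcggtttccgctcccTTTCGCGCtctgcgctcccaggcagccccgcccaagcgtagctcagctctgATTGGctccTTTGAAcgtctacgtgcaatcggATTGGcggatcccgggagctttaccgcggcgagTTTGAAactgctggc.
Mki67 (chr7:135716380-135716539, minus strand): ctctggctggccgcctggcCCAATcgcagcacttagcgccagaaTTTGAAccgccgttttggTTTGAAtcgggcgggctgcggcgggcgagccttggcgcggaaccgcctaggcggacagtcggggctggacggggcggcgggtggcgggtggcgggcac.
Top2a (chr11:99024190-99024349, minus strand): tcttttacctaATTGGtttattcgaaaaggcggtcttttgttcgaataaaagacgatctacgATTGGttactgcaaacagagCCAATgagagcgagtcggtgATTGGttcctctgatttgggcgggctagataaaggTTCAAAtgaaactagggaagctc.
Kif11 (chr19:37376222-37376381, plus strand): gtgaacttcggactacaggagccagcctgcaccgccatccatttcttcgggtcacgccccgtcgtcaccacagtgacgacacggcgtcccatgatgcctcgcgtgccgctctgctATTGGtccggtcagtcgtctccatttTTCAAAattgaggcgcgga.
Ube2c (chr2:164769769-164769928, plus strand): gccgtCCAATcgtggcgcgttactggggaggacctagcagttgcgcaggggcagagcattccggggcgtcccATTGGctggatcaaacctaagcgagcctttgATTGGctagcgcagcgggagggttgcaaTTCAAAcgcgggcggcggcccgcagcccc.
Mcm5 (chr8:75109349-75109508, plus strand): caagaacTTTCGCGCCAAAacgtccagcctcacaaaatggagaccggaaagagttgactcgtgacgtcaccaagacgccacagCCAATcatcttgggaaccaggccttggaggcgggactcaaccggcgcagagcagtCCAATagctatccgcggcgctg.
Mcm6 (chr1:128359706-128359865, minus strand): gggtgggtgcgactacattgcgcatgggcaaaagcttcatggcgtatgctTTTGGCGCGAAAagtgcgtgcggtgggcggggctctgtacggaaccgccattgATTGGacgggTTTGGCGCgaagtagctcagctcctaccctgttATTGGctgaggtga.
Cdc6 (chr11:98907991-98908150, plus strand): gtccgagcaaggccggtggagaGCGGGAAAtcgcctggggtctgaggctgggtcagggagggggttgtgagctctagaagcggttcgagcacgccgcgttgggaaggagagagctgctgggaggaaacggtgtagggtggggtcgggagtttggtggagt.
Rrm2 (chr12:24708094-24708253, plus strand): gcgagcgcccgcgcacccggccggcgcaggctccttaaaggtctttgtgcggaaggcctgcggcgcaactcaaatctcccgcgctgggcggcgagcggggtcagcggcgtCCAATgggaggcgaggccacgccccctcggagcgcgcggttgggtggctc.
In the first 5, the CHR letters lie downstream of 1 or more NF-Y boxes, and Cdk1 alone of these also holds E2F letters. In Mcm5 and Mcm6, E2F matches of both strands overlap in 1 run of capitals, and the Rrm2 stretch holds an NF-Y box only.

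**Figure D3:**
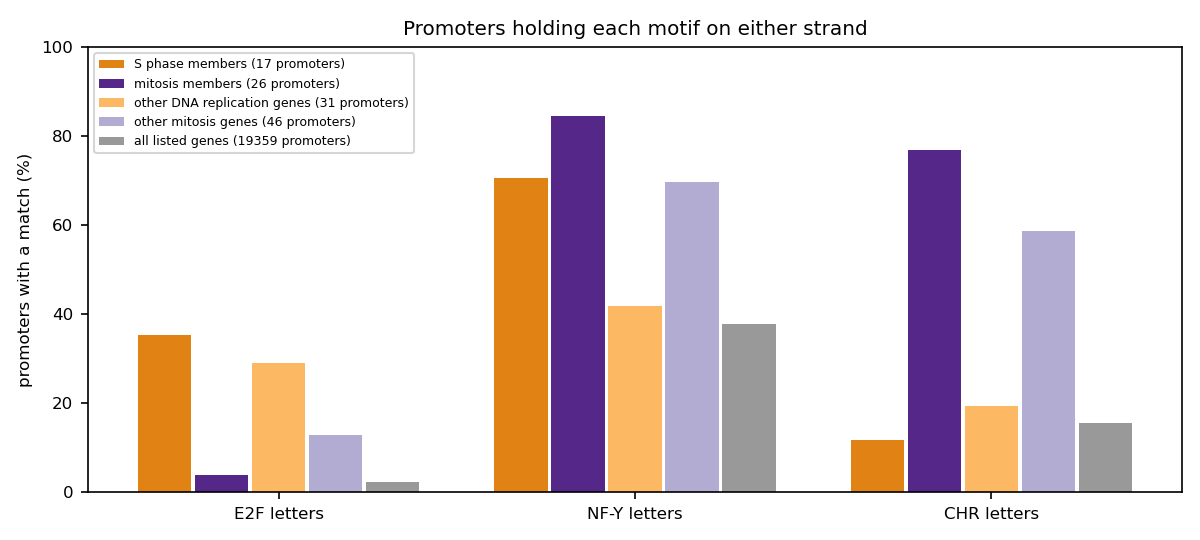
Share of promoter windows (bars, in percent from 0) that hold the E2F, NF-Y or CHR letters on either strand. Bars are for S phase and mitosis members, other genes of both pathways and all genes counted. They have no error since each counts all windows at hand, which cover 40 of the 49 members. The CHR bar of mitosis members is at 76.9% and that of S phase members at 11.8%, and for E2F the order is turned, at 3.85% and 35.3%.

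Among the S phase genes, the 9 that license origins and unwind DNA came first. They were all higher in lesional than in baseline CTL skin, by log2 fold changes of 0.45 to 1.08, and the groups did not overlap for any of them, beside 36.7% of all genes tested that were higher without overlap. Mcm4 is a subunit of the MCM helicase and had the most RNA per length in this role (14.1 CPM per kilobase of exon over 8 mice). It was at 36.0 and 31.2 CPM in baseline CTL, 31.0 and 54.4 in baseline butyrate, 71.9 and 60.1 in lesional CTL and 60.2 and 61.0 in lesional butyrate skin. Mcm3, another subunit, was at 26.8 and 25.8 CPM in baseline CTL, 28.4 and 42.3 in baseline butyrate, 57.6 and 49.4 in lesional CTL and 49.2 and 51.1 in lesional butyrate skin. Mcm5 was at 29.3 and 28.1 CPM in baseline CTL, 27.4 and 59.4 in baseline butyrate, 65.1 and 56.2 in lesional CTL and 52.5 and 60.0 in lesional butyrate skin. In all 3, the lesional mice lay above both baseline CTL mice and baseline butyrate mouse 1, and baseline butyrate mouse 3 fell between these groups for Mcm3 and Mcm4 and among the lesional mice for Mcm5. Mcm3 rose 2.04-fold with HDM in CTL mice (log2 fold change 1.03 ± 0.21 (SE), FDR 0.0734 by edgeR's quasi-likelihood test with Benjamini-Hochberg adjustment), the only member called (FDR below 0.1 and a fold-change above 2) by edgeR in any comparison fitted over all 8 mice, beside 2.37% of all genes that were called higher here. Mcm4 and Mcm5 gave 0.97 ± 0.27 (SE) and 1.08 ± 0.34 (SE) with an FDR of 0.138 and 0.174. Cdc6 loads the helicase onto origins. It was at 6.11 and 6.72 CPM in baseline CTL, 5.98 and 9.86 in baseline butyrate, 11.3 and 9.32 in lesional CTL and 9.50 and 12.9 in lesional butyrate skin, with lesional butyrate mouse 4 highest. The smallest value of this role was that of Mcm7, at 0.45.

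Of the genes that act at the fork, Pcna, the sliding clamp of DNA polymerase, had the most RNA per length of all 49 members at 29.2 CPM per kilobase. It was at 53.0 and 50.8 CPM in baseline CTL, 50.6 and 78.7 in baseline butyrate, 82.9 and 77.2 in lesional CTL and 84.8 and 82.6 in lesional butyrate skin. The 4 lesional mice and baseline butyrate mouse 3 were close to each other and above the remaining 3, with a log2 fold change of 0.63 ± 0.21 (SE) for HDM in CTL mice (FDR 0.191, edgeR). Uhrf1, which carries DNA methylation over to the new strand, gave 0.85 ± 0.31 (SE). Rrm2 is the regulated subunit of ribonucleotide reductase, which makes deoxyribonucleotides. It was at 23.6 and 23.5 CPM in baseline CTL, 25.0 and 55.7 in baseline butyrate, 68.6 and 50.6 in lesional CTL and 48.3 and 49.9 in lesional butyrate skin. Its change with HDM in CTL mice was the largest of the 49 at 1.34 ± 0.37 (SE), 2.53-fold, with an FDR of 0.137 by edgeR, and lesional CTL mouse 4 stood highest. Its partner Rrm1, Tyms (thymidylate synthase) and Tk1 (thymidine kinase) had smaller values of 0.48, 0.58 and 0.60 in this comparison, and all 3 were highest in baseline butyrate mouse 3. Tyms was at 15.6 and 15.6 CPM in baseline CTL, 15.8 and 26.2 in baseline butyrate, 24.7 and 21.7 in lesional CTL and 25.4 and 25.3 in lesional butyrate skin, so that its lesional butyrate pair lay just above its lesional CTL pair.

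The genes of the G1/S switch were the cyclins E and E2f1. Ccne1 is the cyclin that activates Cdk2 at the start of S phase. It was at 3.33 and 4.83 CPM in baseline CTL, 5.36 and 10.1 in baseline butyrate, 10.7 and 7.52 in lesional CTL and 8.78 and 9.44 in lesional butyrate skin. E2f1 is a transcription factor that drives S phase genes. Its levels were 12.1 and 14.5 CPM in baseline CTL, 13.8 and 11.5 in baseline butyrate, 20.4 and 20.2 in lesional CTL and 15.8 and 19.3 in lesional butyrate skin. E2f1 was the exception among the members, since its lowest level of all mice was in baseline butyrate mouse 3, where every other member exceeded the other 3 baseline mice. With HDM in CTL mice the log2 fold change was 1.15 ± 0.38 (SE) for Ccne1 and 0.61 ± 0.20 (SE) for E2f1 (FDR 0.188 and 0.174, edgeR). The groups did not overlap for either, beside 36.7% of all genes tested that were higher without overlap.

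The mitosis genes of the entry into division were 9 kinases, cyclins and regulators. Ccna2 is the cyclin A of S and G2 phase and was the most abundant of them per length (11.9 CPM per kilobase). It was at 33.5 and 34.1 CPM in baseline CTL, 32.5 and 84.5 in baseline butyrate, 56.5 and 48.8 in lesional CTL and 48.3 and 51.0 in lesional butyrate skin. Baseline butyrate mouse 3 stood highest, and the lesional mice lay between it and the other baseline mice. Cdk1, the kinase that starts mitosis, had the largest change of this role with HDM in CTL mice, 0.91 ± 0.44 (SE) (FDR 0.309, edgeR). Cdc25c, the phosphatase that activates Cdk1, had the smallest, 0.03 ± 0.57 (SE), and its CTL groups overlapped. The values of Plk1 and Aurka, kinases of spindle poles and centrosomes, were 0.70 and 0.50, and those of Ccnb1, Ccnb2, Foxm1 and Melk were 0.46, 0.51, 0.39 and 0.60.

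Genes of chromosomes, kinetochores and the spindle checkpoint were the largest role, with 11 members. Mki67, the proliferation marker Ki-67 that coats mitotic chromosomes, had the most RNA per length of them (19.5 CPM per kilobase). It was at 144 and 139 CPM in baseline CTL, 122 and 386 in baseline butyrate, 219 and 179.9 in lesional CTL and 169 and 215 in lesional butyrate skin. Its HDM change in CTL mice was 0.49 ± 0.49 (SE) (FDR 0.585, edgeR), and baseline butyrate mouse 3 was 1.97-fold above the mean of the 4 lesional mice. Cenpa is the histone variant that marks centromeres. It was at 20.7 and 19.3 CPM in baseline CTL, 17.9 and 38.3 in baseline butyrate, 32.1 and 28.1 in lesional CTL and 21.2 and 22.3 in lesional butyrate skin. Cenpe is a kinetochore motor. It was at 16.9 and 16.2 CPM in baseline CTL, 14.3 and 47.5 in baseline butyrate, 29.1 and 24.8 in lesional CTL and 19.2 and 22.0 in lesional butyrate skin. Cenpf, another kinetochore protein, was at 28.9 and 24.5 CPM in baseline CTL, 20.8 and 60.6 in baseline butyrate, 30.6 and 27.7 in lesional CTL and 21.1 and 28.5 in lesional butyrate skin. Both lesional butyrate mice were below both lesional CTL mice for Cenpa and Cenpe, as in 22.5% of all genes tested. For Cenpf, lesional butyrate mouse 3 lay below both baseline CTL mice.

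Of the checkpoint kinases, Bub1 was at 6.84 and 7.27 CPM in baseline CTL, 8.23 and 26.2 in baseline butyrate, 15.0 and 11.0 in lesional CTL and 12.5 and 14.1 in lesional butyrate skin. Its partner Bub1b was at 13.6 and 12.5 CPM in baseline CTL, 10.9 and 36.4 in baseline butyrate, 26.2 and 20.7 in lesional CTL and 18.1 and 19.8 in lesional butyrate skin. Ttk is the kinase that sets off the checkpoint. Its levels were 15.9 and 16.4 CPM in baseline CTL, 16.5 and 25.9 in baseline butyrate, 19.5 and 16.1 in lesional CTL and 23.5 and 23.1 in lesional butyrate skin. Bub1 had the largest excess in baseline butyrate mouse 3 of all 49 members, 3.72-fold over the baseline CTL mean, and Ttk one of the smallest of the mitosis genes, 1.60-fold. Birc5 is the survivin subunit of the complex that corrects attachments. In the fit over all 8 mice it was the only mitosis gene with an unadjusted p under 0.05 for HDM in CTL mice (log2 fold change 0.88 ± 0.35 (SE), FDR 0.239, edgeR).

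Kif11 is the motor that pushes spindle poles apart. Its levels were 19.8 and 22.3 CPM in baseline CTL, 17.3 and 73.2 in baseline butyrate, 38.4 and 28.3 in lesional CTL and 26.9 and 31.1 in lesional butyrate skin. Nusap1 binds spindle microtubules and was the most abundant of this role per length (6.50 CPM per kilobase). It was at 21.9 and 21.5 CPM in baseline CTL, 19.9 and 49.9 in baseline butyrate, 27.0 and 22.9 in lesional CTL and 21.6 and 26.5 in lesional butyrate skin. The excess of Kif11 in baseline butyrate mouse 3, 3.48-fold over baseline CTL, was second to that of Bub1, whereas in Nusap1 the lesional mice, at 21.6 to 27.0 CPM, lay at or just above the baseline CTL pair. Kif20a is a motor of the closing furrow, with 5.30 CPM per kilobase. Its levels were 18.3 and 20.7 CPM in baseline CTL, 16.0 and 38.0 in baseline butyrate, 25.9 and 23.1 in lesional CTL and 17.0 and 25.0 in lesional butyrate skin. The 3 genes of cytokinesis (Kif20a, Kif23 and Prc1) had HDM changes of 0.33, 0.10 and 0.25 on the log2 scale. Cdc20 turns on the ubiquitin ligase that ends mitosis, and had 12.6 CPM per kilobase. Its levels were 16.0 and 17.9 CPM in baseline CTL, 14.0 and 32.0 in baseline butyrate, 31.4 and 27.6 in lesional CTL and 23.4 and 26.4 in lesional butyrate skin. Here lesional CTL mouse 4 came close to baseline butyrate mouse 3, and the HDM change of 0.80 ± 0.37 (SE) was larger than that of Cdca3 (0.22), while the ubiquitin-conjugating Ube2c gave 0.75.

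The comparison of lesional with baseline CTL skin asked how HDM changed these genes in mice that drank the vehicle. All 49 members were higher in lesional skin, with a median of 1.62-fold for S phase and 1.45-fold for mitosis, against 0.989-fold for all genes tested. The groups did not overlap in 18 of 18 S phase and 27 of 31 mitosis genes, against 36.7% of all genes tested that were higher without overlap. Mcm3 was the single member called at an FDR below 0.1 and a fold-change above 2 by edgeR's quasi-likelihood test, beside 2.37% of all genes called higher, and at an FDR below 0.1 alone it was 1 of 49 beside 2.91%. An unadjusted p under 0.05 was reached by 12 of 18 S phase genes and 1 of 31 mitosis genes, beside 9.56% of all genes that were higher at this p. The call of Mcm3 was lost when any CTL or any lesional butyrate mouse was left out, while all 18 S phase and 28 of the 31 mitosis genes stayed higher whichever mouse was left out. This fit shares its estimate of spread with the baseline butyrate pair. Without baseline butyrate mouse 3, the standard errors fell from a median of 0.26 to 0.13 for S phase and from 0.41 to 0.16 for mitosis. In that fit 18 of 18 S phase and 21 of 31 mitosis genes had an FDR below 0.1, beside 18.8% of all genes that were higher at this FDR. Without baseline butyrate mouse 1 instead, the standard errors were 0.13 and 0.15 and the counts again 18 and 21. The 10 that did not pass without mouse 3 were Cdc25c, Aurka, Cenpf, Aurkb, Ttk, Nusap1, Kif20a, Kif23, Prc1 and Cdca3. Rrm2, Ccne1, Mcm5 and Mcm3 then also passed the fold-change of 2, at 1.34 ± 0.15 (SE), 1.15 ± 0.26 (SE), 1.08 ± 0.12 (SE) and 1.03 ± 0.11 (SE) on the log2 scale (FDR 0.00386, 0.0232, 0.00350 and 0.00321 by edgeR), beside 6.33% of all genes called higher without mouse 3. With only the 4 CTL mice in the fit, 18 S phase and 25 mitosis genes had an FDR below 0.1, beside 24.9% of all genes. With 2 mice against 2, an exact two-sided permutation test of a single gene cannot go below p = 0.333.

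**Figure D4:**
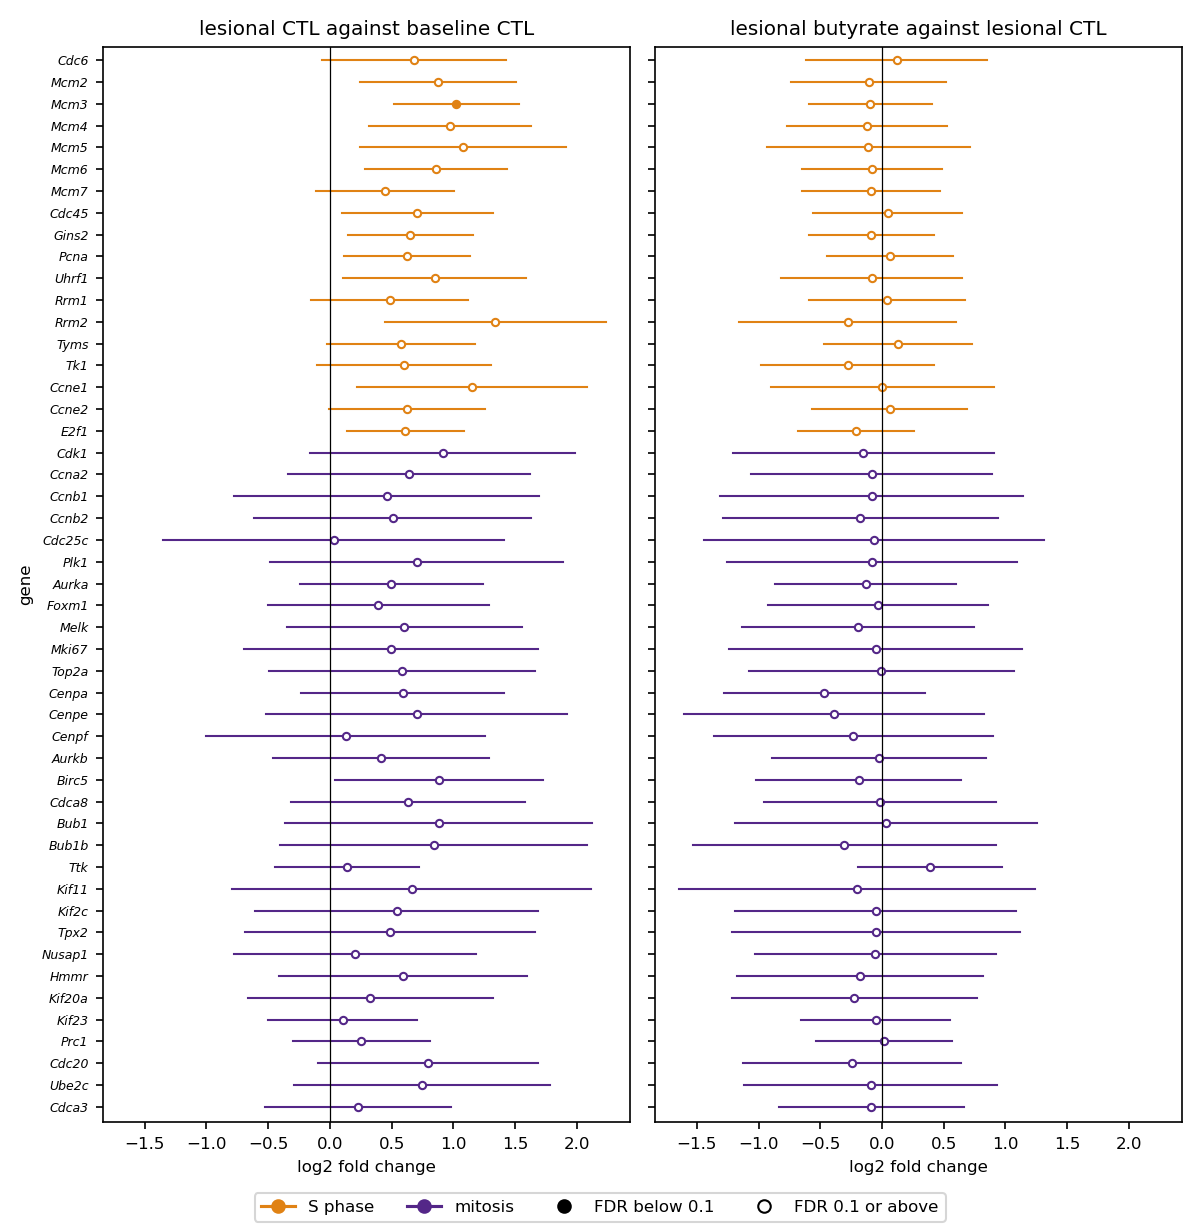
Fitted log2 fold changes of the 49 genes (points) with 95% intervals (lines) from edgeR over all 8 mice, for lesional against baseline CTL skin (left) and lesional butyrate against lesional CTL skin (right), S phase in orange and mitosis in purple, filled where the FDR is below 0.1. On the left all points are above 0 and Mcm3 alone is filled; on the right they run from -0.47 (Cenpa) to 0.39 (Ttk) and every interval spans 0.

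The same comparison in butyrate-treated mice rests on the baseline butyrate pair, whose mice differed. The median was 1.21-fold for S phase and 0.815-fold for mitosis (0.970-fold for all genes tested). The highest values were those of Mcm4, Mcm3 and Cdc6 (log2 fold changes of 0.50, 0.50 and 0.50) and the lowest values those of Cenpf, Kif11 and Cenpe (-0.71, -0.64 and -0.59). No member was called by edgeR, limma-voom or DESeq2, beside 0.277% of all genes called higher by edgeR (0.284% at the FDR alone), and 2 S phase genes, Mcm3 and E2f1, had an unadjusted p under 0.05, beside 6.4% of all genes that were higher. The groups did not overlap in 5 S phase genes and no mitosis gene, against 15.7% of all genes. Without baseline butyrate mouse 3 the medians were 1.66-fold and 1.52-fold, near those in CTL mice, and 12 S phase and 14 mitosis genes had an FDR below 0.1, beside 7.0% of all genes, with Mcm5 called beside 2.5%. Without baseline butyrate mouse 1 instead, the medians were 0.973-fold and 0.583-fold, and Cdc25c, Cenpe, Cenpf, Kif11 and Nusap1 were called lower in lesional skin, beside 7.96% of all genes. The direction of the mitosis median thus turned with the baseline butyrate mouse that was kept, and in both fits that lone mouse is assumed to vary like the mice of the other groups.

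The comparison of lesional butyrate with lesional CTL skin asked whether butyrate changed these genes once skin was exposed to HDM. The median member was at 0.944-fold for S phase and 0.943-fold for mitosis, beside 0.996-fold for all genes tested, and 39 of 49 members were lower. This direction turned with single lesional mice, as 17 of 49 were lower without lesional CTL mouse 4 and 21 without lesional butyrate mouse 3, against 45 without lesional CTL mouse 5 and 44 without lesional butyrate mouse 4. No member was called by edgeR, where 0% of all genes were, nor by limma-voom or DESeq2, and none had an unadjusted p under 0.05, beside 4.84% of all genes. The lowest values were those of Cenpa (-0.47, 95% interval -1.28 to 0.35), Cenpe (-0.39, -1.60 to 0.82) and Bub1b (-0.30, -1.53 to 0.92) on the log2 scale. The highest were those of Ttk (0.39, -0.19 to 0.97), Tyms (0.13, -0.47 to 0.73) and Cdc6 (0.12, -0.62 to 0.85). The groups did not overlap in 2 members that were higher (Tyms and Ttk, against 22.4% of all genes) and 8 that were lower (Rrm2, Tk1, E2f1, Cenpa, Cenpe, Bub1b, Cdc20 and Ube2c, against 22.5%). The intervals narrowed when either baseline butyrate mouse was left out, with a median standard error for mitosis genes of 0.15 without mouse 3 and 0.15 without mouse 1. Without mouse 3, Mki67 was at -0.05 (-0.42 to 0.32), Pcna at 0.06 (-0.15 to 0.28) and Rrm2 at -0.28 (-0.64 to 0.08). No member passed the FDR in that fit either. Its lowest value was that of Cenpa (-0.47 ± 0.12 (SE)), and its intervals over all members ran from -0.75 to 0.71. In the fit over all 8 mice, intervals reached past a 2-fold change, as for Kif11 (-1.64 to 1.24) and Cenpe (-1.60 to 0.82). A change of 2-fold was therefore not excluded in that fit, and the width of the intervals depended on the baseline butyrate mice kept. In the same lesional mice the summed level of 8 neutrophil genes was 2867 and 1797 CPM in CTL and 839 and 401 CPM in butyrate-treated mice, and that of 8 suprabasal keratinocyte genes was 4649 and 5609 against 13479 and 10365 CPM. Their part in the values of the cell cycle genes was not tested.

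In baseline skin, butyrate against CTL gave higher values in 48 of 49 members, all but E2f1, with a median of 1.36-fold for S phase and 1.61-fold for mitosis (1.00-fold for all genes). The largest were those of Bub1 (1.29 ± 0.52 (SE)), Kif11 (1.11 ± 0.60 (SE)) and Ccne1 (0.93 ± 0.38 (SE)) on the log2 scale, and the lowest that of E2f1 (-0.07 ± 0.20 (SE)). No member was called by edgeR, limma-voom or DESeq2, and 0% of all genes were by edgeR, while Bub1 and Ccne2 had an unadjusted p under 0.05, beside 2.35% of all genes that were higher. The groups did not overlap in 8 S phase and 5 mitosis genes, against 13.8% of all genes that were higher without overlap. The values depended on mouse 3. With mouse 1 alone the medians were 1.02-fold for S phase and 0.865-fold for mitosis, and with mouse 3 alone they were 1.70-fold and 2.30-fold, with 3 S phase genes (Mcm5, Rrm2 and Ccne1) and 22 mitosis genes called higher, beside 9.35% of all genes. In each of these a lone mouse is assumed to vary like the mice of the other groups. The interaction, which is the butyrate effect in lesional skin minus that in baseline skin, was negative for all 49 members, with a median of 0.703-fold for S phase and 0.575-fold for mitosis. None was called by edgeR, limma-voom or DESeq2 (0% of all genes by edgeR) and none had an unadjusted p under 0.05, beside 4.64% of all genes. The largest were those of Kif11 (-1.31 ± 0.85 (SE)), Cenpe (-1.29 ± 0.71 (SE)) and Bub1 (-1.26 ± 0.72 (SE)) on the log2 scale. Without baseline butyrate mouse 3 the medians were 0.931-fold and 1.05-fold, and without mouse 1 they were 0.577-fold and 0.387-fold with 29 members called lower, beside 8.59% of all genes. Rrm2 was the 1 member whose butyrate and CTL groups were apart without overlap in opposite directions in baseline and lesional skin, beside 7.47% of all genes tested.

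**Figure D5:**
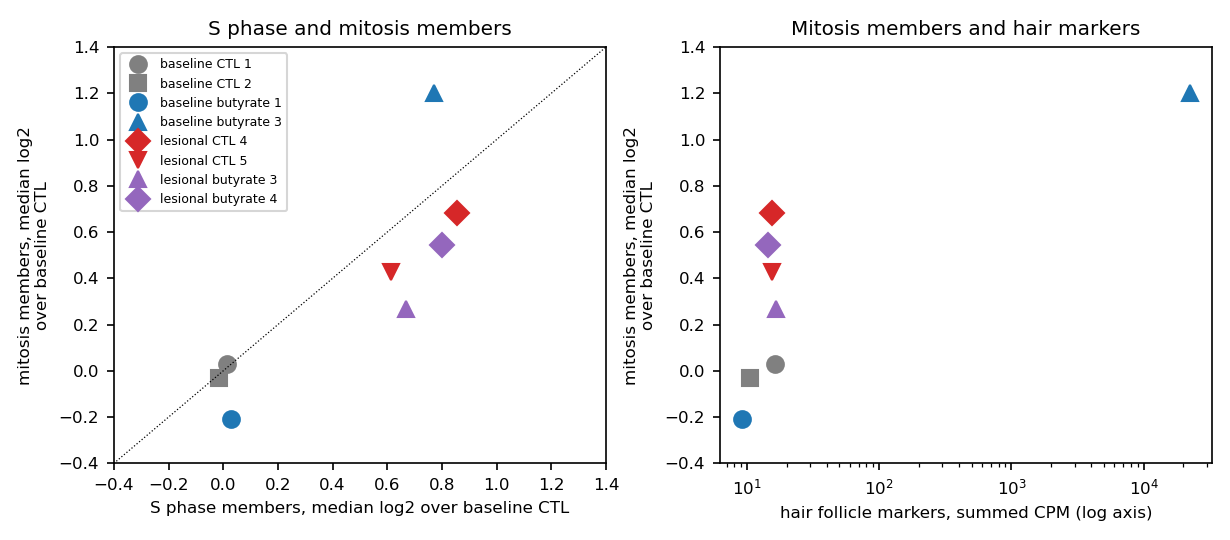
Each mouse by the median level of S phase genes (left, horizontal) or the summed CPM of hair follicle markers (right, horizontal, log axis) and by the median level of mitosis genes (vertical), all medians as log2 over the baseline CTL mean, with colour for group and shape for mouse number. On the left baseline butyrate mouse 3 alone lies clearly above the dotted line of equal change, and on the right it lies at 22253 CPM where the others lie at 9.19 to 16.7.

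The summed levels of markers of other cells also differed between the mice. The 5 genes listed as markers of injury-induced keratinocytes, among them Krt6a, summed to 1042 to 1188 CPM in the 3 baseline mice other than baseline butyrate mouse 3. They summed to 3360 CPM in that mouse and 3759 to 9007 CPM in the lesional mice. Baseline butyrate mouse 3 received no HDM and had the high hair follicle markers, and whether its level came from injured epidermis was not tested. Basal keratinocyte genes (8) summed to 12365 to 14043 CPM in the lesional mice and 11397 to 13593 in the same 3 baseline mice. These ranges overlapped, and the sum was 8442 CPM in baseline butyrate mouse 3. Krt14 did not follow the sum and does not stand for the list. It was at 4668 to 5919 CPM in the lesional mice, 2513 to 2809 in the same 3 baseline mice and 2420 in baseline butyrate mouse 3. Skeletal muscle genes summed to 36499 to 44295 CPM in those 3 mice, 12522 to 22384 in the lesional mice and 9139.6 in baseline butyrate mouse 3. The part of these markers' cells in the levels of the S phase and mitosis genes was not tested.

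Other genes of the same pathways, from lists made beside the 49, are given by counts. Of 36 other DNA replication genes, 35 were higher in lesional than in baseline CTL skin (median 1.47-fold). In this list 2 were called, Cdt1 and Orc1, which both load the helicase, beside 2.37% of all genes called higher. Orc1 was at 3.22 and 2.78 CPM in baseline CTL, 3.04 and 5.10 in baseline butyrate, 11.6 and 9.37 in lesional CTL and 8.26 and 7.07 in lesional butyrate skin. Cdt1 was at 11.2 and 12.8 CPM in baseline CTL, 12.1 and 15.1 in baseline butyrate, 26.2 and 24.6 in lesional CTL and 22.7 and 25.3 in lesional butyrate skin. Both were higher in all 4 lesional mice than in any baseline mouse, including baseline butyrate mouse 3, with log2 fold changes of 1.81 and 1.08 in CTL mice (FDR 0.0523 and 0.0475, edgeR). In 23% of all genes tested, every lesional mouse lay above the baseline mice other than baseline butyrate mouse 3. Of 48 other mitosis genes, 45 were higher (median 1.47-fold) and none was called. An unadjusted p under 0.05 was reached by 5 of the 48, beside 9.56% of all genes that were higher at this p, so their number was near that share. In lesional butyrate against lesional CTL skin, no gene of either list was called, and the extremes were Cdc7 (0.34) and Orc1 (-0.45) among replication genes and Ndc80 (0.22) and Lmnb1 (-0.46) among mitosis genes, on the log2 scale.

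Among 16 G1 cyclins, kinases and transcription factors, 12 were higher with HDM in CTL mice, a direction not tested over the list, and none was called. An unadjusted p under 0.05 was reached by 4 of them, beside 9.56% of all genes that were higher at this p. Myc drives entry into the cycle. Its levels were 74.6 and 68.9 CPM in baseline CTL, 59.2 and 58.5 in baseline butyrate, 103 and 106 in lesional CTL and 92.0 and 63.2 in lesional butyrate skin. Ccnd1, the cyclin D1 of G1, was at 77.8 and 61.3 CPM in baseline CTL, 72.3 and 91.3 in baseline butyrate, 92.6 and 101 in lesional CTL and 108 and 96.5 in lesional butyrate skin. Both were higher in each lesional CTL mouse than in each baseline CTL mouse, as were 36.7% of all genes tested. Their log2 fold changes were 0.54 and 0.47 (FDR 0.198 and 0.227, edgeR). Mycn, a relative of Myc, was at 1.17 and 1.22 CPM in baseline CTL, 1.35 and 32.9 in baseline butyrate, 0.747 and 0.554 in lesional CTL and 1.24 and 1.35 in lesional butyrate skin, a level found in baseline butyrate mouse 3 alone. E2f7 is a repressor of E2F targets. It was at 4.50 and 5.05 CPM in baseline CTL, 5.69 and 10.1 in baseline butyrate, 11.2 and 11.4 in lesional CTL and 4.77 and 6.79 in lesional butyrate skin. It had log2 fold changes of 1.24 for HDM in CTL mice and -0.96 for butyrate in lesional skin (FDR 0.132 and 0.942, edgeR).

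Of 15 tested brakes on the cycle, 11 were lower with HDM in CTL mice (median 0.881-fold), a direction that was not tested over the list. None was called. Cdkn1a, the inhibitor p21, was at 189.9 and 178 CPM in baseline CTL, 166 and 307 in baseline butyrate, 171 and 172 in lesional CTL and 229 and 171 in lesional butyrate skin. Its changes were -0.10 for HDM in CTL mice and 0.22 for butyrate in lesional skin, on the log2 scale. Cdkn1c, the inhibitor p57, was at 21.9 and 17.4 CPM in baseline CTL, 17.4 and 16.1 in baseline butyrate, 9.82 and 13.2 in lesional CTL and 11.4 and 14.4 in lesional butyrate skin. It was lower in each lesional CTL mouse than in each baseline CTL mouse (log2 fold change -0.77, FDR 0.157, edgeR). In lesional skin the extremes with butyrate were Cdkn2b (0.50) and Gadd45a (-0.64), and no brake had an unadjusted p under 0.05 there.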

How the data were processed

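Skin RNA from 8 mice, 1 library each (Illumina TruSeq), was analysed, and the series text counts 16 samples, of which the other 8 were not analysed here. The authors aligned reads with STAR 2.5.2 to GRCm38 through RNASik and deposited raw featureCounts counts per protein-coding gene without normalization. The table is named for reverse-stranded counting, but no strand is stated for the kit, and reads of overlapping or near-identical genes could be split wrongly. Library totals were 18004136 to 21085544 counts.

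The 49 members, their roles and all lists were chosen with earlier results of these data known. Values were named by rule: in each role the member with the most RNA per length, in each comparison the 3 highest and 3 lowest members, in each other pathway list the extremes in lesional skin, and Cdkn1a, Ccnd1 and Myc. Cdt1 was added after its value was seen, as were Mycn, E2f7 and Cdkn1c in other comparisons and the members named in counts. CPM used TMM-scaled libraries. Per-length levels used exon lengths of the annotation on GRCm38.

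Tests used edgeR 4.0.16 in R 4.3.3 (glmQLFit, robust, and glmQLFTest) over all 8 mice after filterByExpr (minimum count 10), with Benjamini-Hochberg FDR over 15163 genes. Groups came from the sample labels, where SCFA is butyrate, the study's methods count biological replicates, and p-values measure the spread between these mice. Other settings tried were DESeq2 1.42.0, voom in limma 3.58.1, RLE scaling, no filter, no fold threshold, the compared mice alone and leaving out each mouse, and 2 that were added after seeing the data: the compared mice alone, and the mice without baseline butyrate replicate 3, each at the FDR without the fold threshold. All 3 tools were tested on simulated counts with known changes.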

Additional observations from a re-analysis of the deposited data

Results flagged for a closer look

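Rrm2 was the 1 of 49 members whose butyrate and CTL groups did not overlap in baseline and in lesional skin, with opposite directions. This pattern was found in 7.47% of all genes tested, so it was no more frequent among the members. Both baseline butyrate mice (25.0 and 55.7 CPM) were above both baseline CTL mice (23.6 and 23.5 CPM), and both lesional butyrate mice (48.3 and 49.9 CPM) were below both lesional CTL mice (68.6 and 50.6 CPM). The difference between the effects was -1.06 ± 0.52 (SE) on the log2 scale and did not pass the test as an interaction (FDR 0.840, edgeR's quasi-likelihood test with Benjamini-Hochberg adjustment). Without baseline butyrate mouse 3 it was -0.36 ± 0.24 (SE), with an FDR of 0.730 by edgeR. Baseline butyrate mouse 1 exceeded the baseline CTL mean by 1.06-fold and mouse 3 by 2.37-fold.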

How the results depend on the processing

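No paired analysis was possible because every group held different mice and the labels name no pairs between groups. The median log2 fold changes of the members moved by less than the pooled SD between replicates in 118 of 128 alternatives, and the others left out a baseline butyrate mouse. That SD (0.28 for S phase and 0.52 for mitosis, log2) includes the unlike baseline butyrate pair and exceeds the medians for butyrate in lesional skin, so it does not show that those held. The sign turned in 8 of the 128, among them both lesional medians, at 0.016 and 0.047 without lesional CTL replicate 4 and 0.029 and 0.028 without lesional butyrate replicate 3 for S phase and mitosis.

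With lesional against baseline CTL skin, 4 members were called by DESeq2 and with only the compared mice, against 1 in the main test, and 0 to 4 when 1 mouse was left out. Over all genes, 543 were called here by edgeR, 1093 by DESeq2, 1918 with only the compared mice and 0 to 1936 without 1 mouse. For lesional against baseline butyrate skin the counts of genes were 53, 698 by DESeq2, 0 with only the compared mice and 0 to 2990 without 1 mouse, with 0 to 5 members. For butyrate in lesional skin they were 0 by edgeR, 1 by limma-voom, 124 by DESeq2, 25 with only the compared mice and 0 to 191 without 1 mouse. For butyrate in baseline skin they were 0, 58 by DESeq2 and 0 to 3777, with 0 to 25 members. For the difference between these effects they were 0, 37 by DESeq2 and 0 to 3275, with 0 to 29 members. In these 3 comparisons by edgeR over all mice, 734, 529 and 703 genes had an unadjusted p under 0.05.

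Leaving out 1 mouse moved the median log2 fold change of S phase members from 0.030 to 0.77 for butyrate in baseline skin, from -0.79 to -0.10 for the difference and from -0.039 to 0.73 for lesional against baseline butyrate skin. For mitosis members these ranges were -0.21 to 1.20, -1.37 to 0.069 and -0.78 to 0.60. All these extremes came without baseline butyrate replicate 1 or 3, and the cause was not tested. With 2 mice a group, differences within these ranges could not be resolved.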
